A study of Mus musculus with 72 samples.

Results

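The comparison described here sets the kidneys of mice fed QH2, the reduced form of coenzyme Q10, against those of mice fed Q10, the oxidised form, after 14 months of feeding. It was chosen by its labels: 3 kidney arrays of the QH2 group and 3 of the Q10 group, 6 of the 72 arrays in the study. All mice were females of SAMP1, a senescence accelerated prone strain, and ate the same base diet. Feeding at 500 mg per kg each day began when the mice were 4 weeks old, so that the mice were 15 months old when the kidneys were taken. The control mice of that age ate the base diet without supplement, and 3 kidneys from each diet after 6 months were also measured, which makes 18 kidney arrays in all. The design text counts 3 mice per group, and each array is taken here to be a mouse of its own. Mice were housed 3 to 6 per cage and the cage groups were never mixed, so a difference between diets cannot be told apart from a difference between cages.

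Coenzyme Q is a lipid that carries electrons in the inner mitochondrial membrane. Dehydrogenases reduce ubiquinone to ubiquinol, and complex III takes the electrons onward to cytochrome c. Ubiquinol is also a lipid antioxidant, and cells can convert one form into the other. The kidney is among the organs richest in mitochondria, because its tubule cells, above all those of the proximal tubule, spend energy on taking solutes back from the filtrate and burn mainly fatty acids. Old mice often have lymphocytes and macrophages between the tubules, and fat tissue and the adrenal gland lie against the kidney.

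RNA was measured on Affymetrix mouse arrays as 1 intensity per probe set, a group of short probes for 1 transcript. Signals below are intensities after quantile normalisation of the 18 kidney arrays. Differences are log2 differences, QH2 minus Q10, on log2(signal + 1), with the standard error of a limma fit over all 18 arrays. A probe set was called at an adjusted p under 0.05 (limma, Benjamini-Hochberg over 27022 tested probe sets). The arrays carried the kidney's own genes: Slc34a1, the sodium phosphate transporter of the proximal tubule, had signals of 4094 to 6448 over the 18 arrays, and Umod, uromodulin of the thick ascending limb, 7434 to 9779. Of 10 defining markers 8 were tested. Nphs1, nephrin of podocytes, was dim at 31.3 to 82.0.

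Some arrays of both diets stood apart from the rest. Q10 array 1 carried genes of the adrenal cortex: the summed signal of 11 adrenal genes was 17658 there and 58.1 to 139.8 on the other 8 arrays of 14 months. Star, which brings cholesterol into mitochondria for steroid synthesis, had a signal of 4689 there and at most 17.1 on the other 8. Q10 array 2 was high in leukocyte genes and low in adipocyte genes: the sum of 19 macrophage genes was 17582, against 3850.5 and 8738 on the other Q10 arrays, 2837 to 3536 on QH2 and 2888 to 6956 on control. The sum of 10 adipocyte genes was 1113 on that array, 7218 and 12021 on the other Q10 arrays, 12201 to 17707 on QH2 and 3401 to 13581 on control. QH2 array 1 was low in B and plasma cell genes. The sum of 14 such genes was 3890 there and 9735 to 18047 on the other 8 arrays of 14 months. Q10 array 3 was high in neutrophil genes, with a sum of 676 over 6 genes, against 89.3 to 270 on the other 8. The Actb 3' to 5' ratio, a sign of RNA quality, overlapped between the diets: it was 2.63 ± 0.675 on QH2 and 2.41 ± 0.790 on Q10 (SD, n = 3 each, exact permutation p = 0.7, where 0.1 is the smallest possible). In whole tissue, fewer cells of a type and less RNA per cell cannot be told apart.

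At 14 months 1633 probe sets differed between QH2 and Q10, 1075 higher on QH2 and 558 lower. They were 6.04% of those tested, 3.98% higher and 2.06% lower, and the median difference over all tested probe sets was 0.04. At an unadjusted p under 0.05 there were 5885, where 1351 would be expected with no difference. The groups of 3 did not overlap in 20.3% of the tested probe sets, 13.1% with QH2 higher and 7.24% with QH2 lower. The change was greater than 2-fold in 329 of the calls, 123 higher and 206 lower, and the 95% interval of a typical probe set reached 0.46 to either side. The share called was greater among brighter probe sets. With only those above the 60th percentile of signal tested, 2057 were called, 1353 higher and 704 lower. The list counts below use the brightest probe set of each gene, so the shares over all tested probe sets are a low yardstick for them.

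The number of calls depended on the normalisation and on which arrays gave the spread. A fit of the 6 arrays alone called 0 probe sets (3879 at an unadjusted p under 0.05), a fit of the 9 arrays of 14 months called 51, and the values as deposited gave 62, of which 24.2% were higher on QH2. With arrays scaled to 1 median signal there were 2105 calls, 86.4% of them higher against 65.8% in the main setting, and the median of all probe sets moved to 0.13. Leaving out Q10 array 1 gave 3078 calls and leaving out Q10 array 2 gave 522. Without QH2 array 1 there were 745 and without QH2 array 3 there were 720, against 931 without Q10 array 3 and 982 without both Q10 arrays 1 and 2. The naming rule gave 158 called probe sets. All 158 lost the call in the fit of 6 arrays, 139 with the values as deposited, 105 without Q10 array 2 and 27 under median scaling, and none reversed. A call is said to hold below when it passed in each of the 6 fits that left out 1 of the arrays compared; 365 probe sets held, 280 higher and 85 lower.

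**Figure D1:**
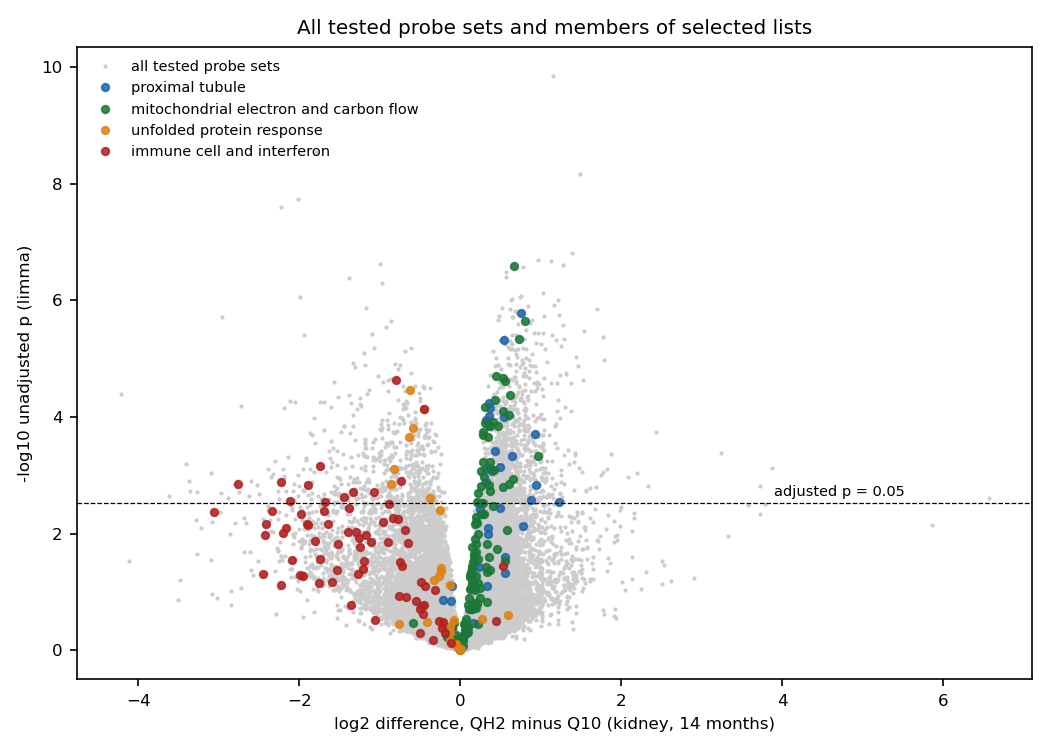
Each tested probe set by its log2 difference (QH2 minus Q10, kidney, 14 months) and the -log10 of its unadjusted limma p, with members of 4 sets of lists coloured. Proximal tubule genes (18 of 36 called higher) and genes of mitochondrial electron and carbon flow lie mostly to the right, and genes of immune cells and the interferon response to the left with wider changes.

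Part of the genes that feed electrons to ubiquinone were higher on QH2. The list of ubiquinone reducing enzymes also holds Etfa and Etfb, which pass electrons to Etfdh, and Suox, whose product donates to cytochrome c. Of its 17 genes 7 were called higher and 0 lower, all 17 had a positive difference, and their median was 0.37 (0.04 over all probe sets). Etfdh, the flavoprotein dehydrogenase that passes electrons from fatty acid oxidation to ubiquinone, had signals of 1052, 905 and 945 on QH2, 560.1, 490.0 and 608 on Q10 and 763, 1017 and 738 on control. The QH2 and Q10 arrays did not overlap, and the difference was 0.81 ± 0.12 (adjusted p = 0.00146). Its electron donor Etfa followed with 2453, 2050.5 and 1999.8 on QH2 against 1538, 1363 and 1589 on Q10 (0.53 ± 0.09, adjusted p = 0.00427). Sdha, the catalytic subunit of succinate dehydrogenase, measured 3184, 3498 and 3521 against 2829.6, 2613 and 2775 (0.31 ± 0.06, adjusted p = 0.00728), although 1 of its 3 probe sets had the opposite sign without being called. These 3 calls held.

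The remaining 4 were Sdhd, an anchor subunit of succinate dehydrogenase (0.53 ± 0.14), Sqor, which oxidises sulfide (0.37 ± 0.09), Prodh2, which oxidises hydroxyproline (0.97 ± 0.23), and Suox, sulfite oxidase (0.61 ± 0.16). Their adjusted p lay between 0.019 and 0.0368, and each was lost in some leave-one-out fit (highest adjusted p = 0.147, Sdhd without QH2 array 1). For Sdhd the other tested probe set had the opposite sign. Calls in the list numbered 5, 7 and 3 in the fits that dropped QH2 array 1, 2 or 3, and 8, 3 and 5 in those that dropped Q10 array 1, 2 or 3. The deviation of the list from the control mean was -0.44 on Q10 array 2, -0.18 and -0.15 on the other Q10 arrays and 0.09 to 0.15 on QH2. The 3 arrays of each diet therefore lay on opposite sides of the control mean.

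Among genes for the synthesis of coenzyme Q itself 2 were higher on QH2. All 12 tested members had a positive difference with a median of 0.29, and 2 were called. Coq9, a lipid binding subunit of the synthesis complex, had signals of 935, 719 and 765 on QH2, 585, 509 and 537 on Q10 and 680.1, 823 and 716 on control. Every QH2 array was above every Q10 array (0.56 ± 0.10, adjusted p = 0.00444), and the call held. Coq8a, an atypical kinase-like protein that the pathway needs, had 565, 774 and 503 on QH2 and 474, 354 and 331 on Q10 (0.66 ± 0.17, adjusted p = 0.0309). Its call was lost in 4 of the 6 leave-one-out fits (highest adjusted p = 0.11, without Q10 array 2).

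The other 10 synthesis genes did not pass. Coq10a and Coq10b, which bind coenzyme Q and chaperone it in the membrane, had differences of 0.55 ± 0.23 and 0.23 ± 0.23. For Coq10a the other tested probe set had the opposite sign, without being called. Among the ring modifying enzymes Coq6 had 0.46 ± 0.18, Coq7 0.32 ± 0.14, Coq3 0.24 ± 0.13 and Coq5 0.18 ± 0.13. The kinase-like Coq8b had 0.25 ± 0.15, the scaffold Coq4 0.15 ± 0.11, the prenyltransferase Coq2 0.08 ± 0.09 and Pdss2, a subunit of the side chain synthase, 0.34 ± 0.16. Adjusted p values ran from 0.131 for Coq6 to 0.664 for Coq2.

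The citric acid cycle with pyruvate dehydrogenase had the greatest share of called members among the 43 lists measured. Of 22 genes 12 were called higher on QH2 and 0 lower, with a median of 0.32. Sucla2, the ATP forming subunit of succinyl-CoA ligase, had signals of 1958, 1874 and 1701 on QH2, 1246, 1085 and 1156 on Q10 and 1448, 1622 and 1409.6 on control. No array overlapped between QH2 and Q10, and the difference was 0.66 ± 0.08 (adjusted p = 0.00059). Pdhx, which holds a subunit in the pyruvate dehydrogenase complex, measured 166, 151 and 166 against 92.4, 94.3 and 102 (0.74 ± 0.11, adjusted p = 0.00198). Dld, the dehydrogenase subunit shared by several such complexes, measured 817, 582 and 731 against 431, 450.2 and 499 (0.61 ± 0.11, adjusted p = 0.00594). In the same direction moved Idh3a, a subunit of isocitrate dehydrogenase (0.60 ± 0.12, adjusted p = 0.00857), Suclg1, the alpha subunit of succinyl-CoA ligase (0.53 ± 0.10, adjusted p = 0.00778), and Dlat, the acetyltransferase of pyruvate dehydrogenase (0.47 ± 0.10, adjusted p = 0.0104, 3 of 3 probe sets called). The calls of these 6 genes held, and those of the list numbered 9, 11 and 10 in the fits that dropped QH2 array 1, 2 or 3, and 13, 8 and 12 in those that dropped Q10 array 1, 2 or 3. Without both Q10 arrays 1 and 2, 3 were called and the median was 0.26.

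Some subunits of the respiratory chain were higher on QH2, by small amounts. In the list of complex I, which oxidises NADH and reduces ubiquinone, 5 of 33 genes were called higher and 0 lower, 5 had a negative difference, and the median was 0.13. Ndufs1, its largest iron-sulfur subunit, had 1579.8, 1401 and 1524 on QH2 and 1082, 1020.0 and 1225 on Q10 (0.44 ± 0.08, adjusted p = 0.0064). The other calls were Ndufa8, Ndufab1, Ndufs4 and Ndufa4 (0.24 to 0.36), of which Ndufa4, despite its name, is now known as a subunit of complex IV. In complexes III to V 10 of 33 were called higher and 0 lower, 3 had a negative difference, and the median was 0.17. Uqcrfs1, the Rieske iron-sulfur protein through which complex III oxidises ubiquinol, had 3264, 2647 and 2786 on QH2, 2031, 2073 and 2265 on Q10 and 2620.0, 2797 and 2451 on control. Neither gene's groups overlapped, and the difference of Uqcrfs1 was 0.44 ± 0.08 (adjusted p = 0.00415). Both calls held. Calls in complex I numbered 2, 3 and 3 in the fits that dropped QH2 array 1, 2 or 3, and 7, 1 and 4 in those that dropped Q10 array 1, 2 or 3, and in complexes III to V 3, 12 and 3 in the fits that dropped QH2 array 1, 2 or 3, and 14, 1 and 5 in those that dropped Q10 array 1, 2 or 3. Without both Q10 arrays 1 and 2, or with the values as deposited, there were 0 in either list. The values as deposited also gave 0 calls among ubiquinone reducing enzymes, coenzyme Q synthesis genes and the citric acid cycle list. Their medians were then 0.36, 0.24 and 0.35.

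**Figure D2:**
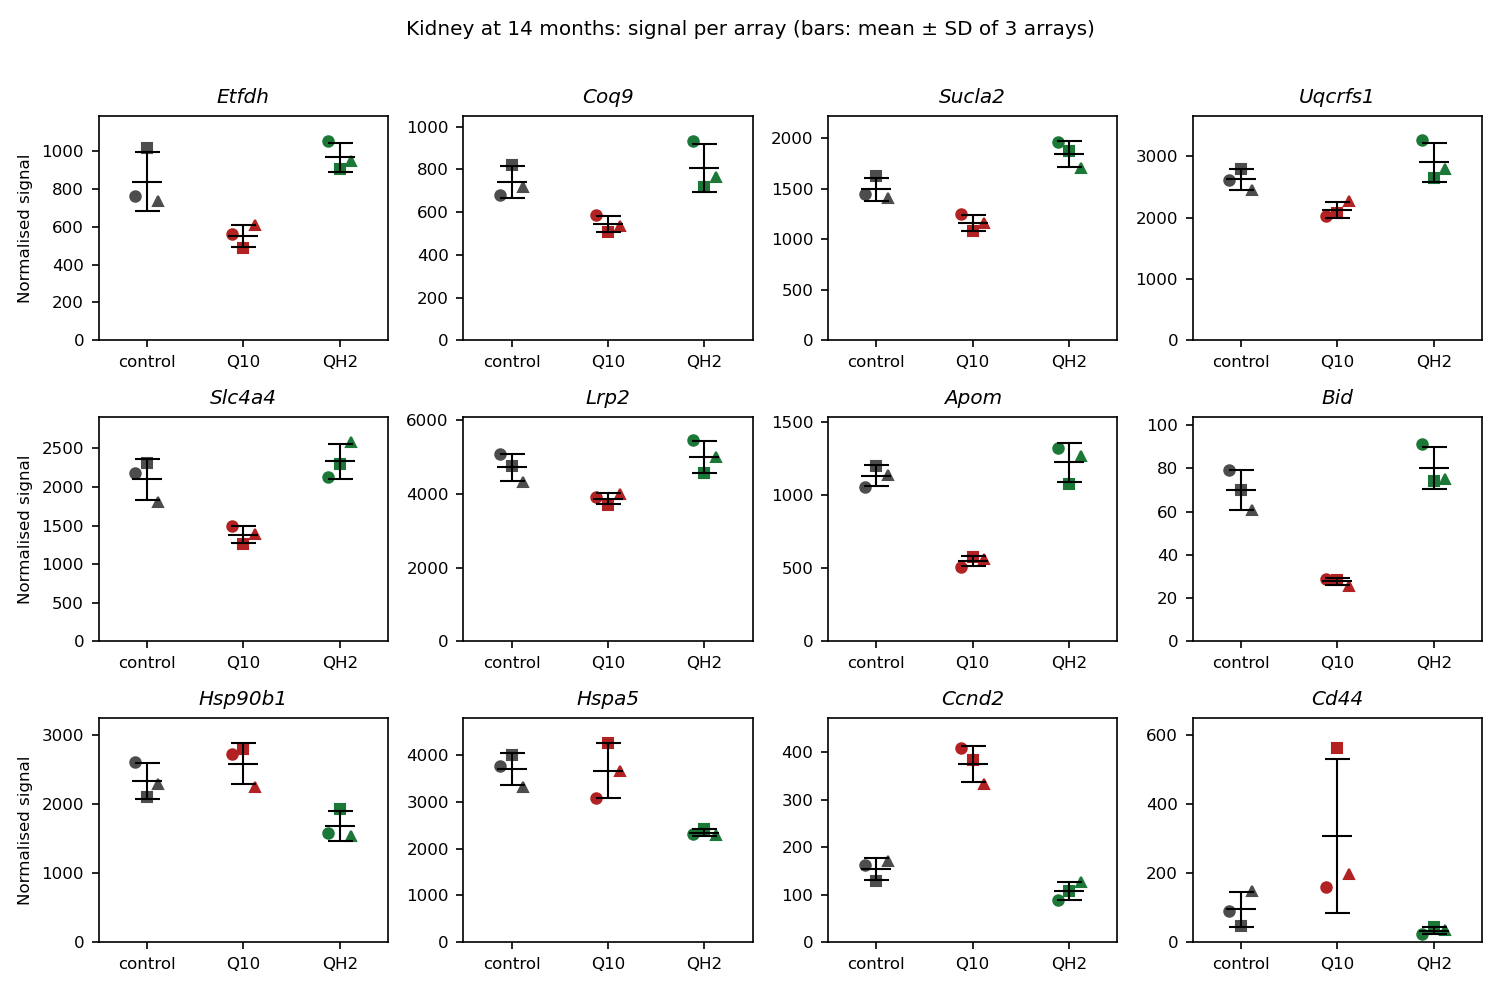
Normalised signal of 12 genes on each kidney array of 14 months, by diet (circle, square and triangle are arrays 1, 2 and 3; bars are the mean ± SD of 3 arrays; each axis starts at 0). QH2 lies above Q10 on every array for the first 8 genes and below it on every array for Hsp90b1, Hspa5, Ccnd2 and Cd44.

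Fatty acid oxidation is the main fuel supply of the tubule. Of 31 genes of this pathway and of PPAR alpha targets 9 were called higher on QH2 and 0 lower, with a median of 0.32. Acads, which oxidises short-chain acyl-CoA, had 654, 395 and 404 on QH2, 303, 235 and 252 on Q10 and 301, 414 and 393 on control (0.84 ± 0.16, adjusted p = 0.00596). Acaa2, the thiolase of the last step, had 2346, 2767 and 2638 against 1995, 1296 and 1743 (0.64 ± 0.12, adjusted p = 0.0064), and 3 of its 3 probe sets were called. In both genes the diets did not overlap. The subunits Hadha (0.52 ± 0.11, adjusted p = 0.00924) and Hadhb (0.60 ± 0.12, adjusted p = 0.00779) of the trifunctional protein and Fabp3, a fatty acid carrier (0.67 ± 0.14, adjusted p = 0.00931), were also higher. The other 2 probe sets of Hadhb had the opposite sign without being called. All 5 calls held. Without Q10 array 2, 5 of the list were called and the median was 0.16, and without both Q10 arrays 1 and 2 there were 3. With the values as deposited 0 were called and the median was 0.33.

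Genes of fatty acid synthesis were called higher in 4 of 16 (0 lower, median 0.46). Srebf1, the transcription factor of lipogenesis, had 357, 295 and 378 on QH2, 179, 166 and 198 on Q10 and 207, 262 and 239.9 on control (0.91 ± 0.20, adjusted p = 0.0147). Acacb and Acaca, which make malonyl-CoA, had differences of 1.19 ± 0.25 (adjusted p = 0.01) and 1.11 ± 0.31 (adjusted p = 0.0434), and Pnpla3, a lipid droplet protein, 1.24 ± 0.34 (adjusted p = 0.0417). Calls in the list numbered 3, 4 and 1 in the fits that dropped QH2 array 1, 2 or 3, and 11, 0 and 2 in those that dropped Q10 array 1, 2 or 3; Q10 array 2 is the one low in adipocyte genes. The adipocyte sums given above ran lower on the Q10 arrays than on the QH2 arrays, and their part in these calls was not tested. In cholesterol synthesis 3 of 20 were called higher (median 0.23). Pmvk, phosphomevalonate kinase, whose pathway also feeds the side chain of coenzyme Q, was above every Q10 and control array on QH2 (0.76 ± 0.14, adjusted p = 0.00625), and its call held. The mevalonate kinase Mvk (0.82 ± 0.24, adjusted p = 0.0485) and Nsdhl, a demethylating enzyme of the pathway (0.37 ± 0.11, adjusted p = 0.0483), lost theirs in 6 and 5 of the 6 fits (highest adjusted p = 0.174 and 0.134, without QH2 array 1 and Q10 array 3).

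The greatest number of calls lay in the proximal tubule, where 18 of 36 marker genes were called higher on QH2 and 0 lower, with a median of 0.36. Slc4a4, the sodium bicarbonate cotransporter, had 2123, 2294 and 2579 on QH2, 1497, 1266 and 1387 on Q10 and 2182, 2312 and 1804 on control (0.75 ± 0.11, adjusted p = 0.00139). Fbp1, a gluconeogenic phosphatase, had 8562, 6714 and 8758 on QH2, 5938, 5429.6 and 5007 on Q10 and 7631, 8151 and 8151 on control (0.55 ± 0.08, adjusted p = 0.00198). In both genes the Q10 arrays lay below all other arrays of 14 months. The endocytic receptors that recover filtered proteins followed: Lrp2, megalin, had 5457, 4577 and 5007 against 3922, 3705 and 3996 (0.37 ± 0.07, adjusted p = 0.00748) and Cubn, cubilin, 3563, 3166 and 3340.1 against 2594, 2672 and 2549 (0.36 ± 0.07, adjusted p = 0.00669).

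Some solute carriers of the same segment were higher too. Slc34a1, the phosphate transporter, differed by 0.38 ± 0.08 (adjusted p = 0.0103), Slc13a1, which carries sulfate, by 0.54 ± 0.11 (adjusted p = 0.00899), and Slc7a9, a cystine and dibasic amino acid carrier, by 0.35 ± 0.07 (adjusted p = 0.00871). Miox, which breaks down inositol, differed by 0.33 ± 0.07 (adjusted p = 0.00928) at signals of 7155 to 8758 on Q10 and 9358 to 10290.2 on QH2. These 8 calls held. The glucose carrier Slc5a2 (0.89 ± 0.25, adjusted p = 0.0464) overlapped between the diets and lost its call in 4 fits (highest adjusted p = 0.188, without Q10 array 3). Calls in the list numbered 15, 16 and 9 in the fits that dropped QH2 array 1, 2 or 3, and 21, 10 and 11 in those that dropped Q10 array 1, 2 or 3, and 15 without both Q10 arrays 1 and 2. With the values as deposited 0 were called and the median was 0.40. The list deviated from the control mean by -0.13 on Q10 array 1 and by -0.40 and -0.41 on Q10 arrays 2 and 3, the 2 arrays highest in macrophage genes, and by -0.03 to 0.12 on QH2. The part of the leukocyte genes in this difference was not tested.

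Further along the nephron fewer markers passed. In the loop of Henle 0 of 12 were called (median -0.07), and Umod differed by -0.08 ± 0.06. In the distal convoluted and connecting tubule 2 of 14 were called (median 0.34): Slc8a1, the sodium calcium exchanger, with 657, 705 and 749 on QH2 and 369.6, 408 and 457 on Q10 (0.78 ± 0.15, adjusted p = 0.00647), and Calb1, the calcium buffer calbindin (0.44 ± 0.10, adjusted p = 0.0199). The Slc8a1 call held, that of Calb1 was lost without Q10 array 2 (adjusted p = 0.0843) or QH2 array 3. All 15 genes of the intercalated cell list had a positive difference (median 0.39) and 3 were called. These were Slc8a1, which is on both lists and so is not particular to these cells, and 2 more. The latter were the ammonia channel Rhbg (0.49 ± 0.12, adjusted p = 0.0249) and the proton pump subunit Atp6v1b1 (0.75 ± 0.22, adjusted p = 0.0463). The list had 1 call without QH2 array 1 or Q10 array 2 and 5 without Q10 array 3. In principal cells 2 of 15 were called higher and 0 lower, with a median of 0.06, 9 positive differences and 6 negative. The calls were the sodium channel subunit Scnn1b (0.62 ± 0.17, adjusted p = 0.0411) and the potassium channel subunit Kcne1 (1.03 ± 0.26, adjusted p = 0.0268). Slc14a2 did not pass (-2.42 ± 0.80, adjusted p = 0.0801), and its other tested probe set had the opposite sign. It was called lower without QH2 array 1 (adjusted p = 0.00778), where 0 of the list were called higher. The Scnn1b call was lost in each of the 6 leave-one-out fits, and that of Kcne1 in the 4 without QH2 array 1, 2 or 3 or Q10 array 2. Podocytes and endothelial cells had 0 called of 14 and of 19 (medians 0.13 and -0.16). The hormone receptors Kl, the FGF23 coreceptor klotho (0.41 ± 0.10, adjusted p = 0.0254), and Pth1r, the parathyroid hormone receptor (0.40 ± 0.09, adjusted p = 0.018), were higher on QH2 and were lost in some fits (highest adjusted p = 0.0732 without QH2 array 2 and 0.0865 without Q10 array 2).

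The antioxidant list had few calls. Of 27 genes 2 were called higher and 0 lower, with a median of 0.11. Gsta3, a glutathione transferase, had 412, 299.8 and 366 on QH2, 128, 126 and 152 on Q10 and 423, 378 and 249 on control (1.40 ± 0.17, adjusted p = 0.00059). Its Q10 arrays lay below all others and the call held. Gpx1, which reduces hydrogen peroxide, differed by 0.30 ± 0.07 (adjusted p = 0.0163), lost without Q10 array 2 (adjusted p = 0.0789) or QH2 array 3. Among enzymes of drug metabolism 5 of 25 were higher and 0 lower (median 0.32), with Gstt1, another glutathione transferase, at 0.40 ± 0.08 (adjusted p = 0.0112, held). The other calls were the monooxygenases Fmo1 (0.67), Cyp2j5 (0.25) and Cyp4b1 (0.49) and the sulfotransferase Sult1c2 (0.56), and calls there numbered 2, 5 and 1 in the fits that dropped QH2 array 1, 2 or 3, and 11, 1 and 2 in those that dropped Q10 array 1, 2 or 3. The senescence and p53 target list had 0 called of 11, and the circadian clock list had 0 of 18 (medians -0.17 and 0.20). These counts take the brightest probe set of each gene. A dimmer probe set of Hlf, a member of the clock list, was called higher.

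The smallest p values belonged to genes outside these lists, Apom, Ccnd2 and Bid, which were singled out after their values were seen. Apom, an apolipoprotein of the proximal tubule and liver that carries sphingosine 1-phosphate, had 1325, 1076 and 1270.3 on QH2, 509, 580.3 and 560.5 on Q10 and 1057, 1202 and 1139.9 on control. The Q10 level was less than that of any other array, and the difference of 1.15 ± 0.09 had an adjusted p of 3.79e-06 with both probe sets called. Bid, a BH3 protein that promotes apoptosis at mitochondria, had 91.2, 74.1 and 75.1 on QH2, 28.8, 28.6 and 25.8 on Q10 and 79.1, 70.1 and 60.7 on control (1.49 ± 0.15, adjusted p = 6.10e-05). In the opposite direction Ccnd2, cyclin D2, had 89.3, 107 and 127 on QH2, 408, 383 and 333 on Q10 and 163, 129 and 172 on control (-1.79 ± 0.17, adjusted p = 3.84e-05), with 6 of 6 probe sets called. In these 3 genes the Q10 arrays lay outside the range of both other diets, and the 3 calls held.

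Several genes of the unfolded protein response were lower on QH2. This pathway raises chaperones of the endoplasmic reticulum when unfolded proteins build up there. Of 26 genes 7 were called lower and 0 higher, with a median of -0.24. With arrays scaled to 1 median signal 0 were called and the median was -0.06. The values as deposited gave 0 calls as well, at a median of -0.23. Hsp90b1, the chaperone GRP94, had 1588, 1931 and 1534 on QH2, 2720.0, 2789 and 2249 on Q10 and 2605, 2100.3 and 2294 on control (-0.62 ± 0.11, adjusted p = 0.00534). Hspa5, the chaperone BiP, had 2313, 2421 and 2284 on QH2, 3077, 4250.5 and 3649.9 on Q10 and 3769.6, 3996 and 3323 on control (-0.63 ± 0.14, adjusted p = 0.013). Xbp1, a transcription factor of the response that also serves as a plasma cell marker, had 1953, 1678 and 1867 on QH2, 2509.7, 2679 and 2313 on Q10 and 2759.7, 2588 and 2319 on control (-0.45 ± 0.09, adjusted p = 0.00748). For these 3 genes, and for the other 4 called, the QH2 arrays lay below all Q10 and all control arrays.

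Of the others Syvn1, a ubiquitin ligase of the endoplasmic reticulum, differed by -0.59 ± 0.12 (adjusted p = 0.011) and its partner Sel1l by -0.38 ± 0.11 (adjusted p = 0.0455), with 3 of the 5 Sel1l probe sets of opposite sign and not called. The secreted stress proteins Manf and Creld2 differed by -0.82 ± 0.20 (adjusted p = 0.0248) and -0.86 ± 0.23 (adjusted p = 0.0345). Hsp90b1 and Xbp1 held, and calls in the list numbered 4, 8 and 4 in the fits that dropped QH2 array 1, 2 or 3, and 6, 2 and 6 in those that dropped Q10 array 1, 2 or 3. Without Q10 array 2 Hspa5 had an adjusted p of 0.069, Syvn1 0.0554, Manf 0.125 and Creld2 0.161. Sel1l had 0.176 without QH2 array 1, and without both Q10 arrays 1 and 2 there were 0 calls. The list's deviation from the control mean was -0.30, -0.23 and -0.29 on QH2 and -0.01, 0.14 and -0.06 on Q10.

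The promoters of 4 of these 7 genes are printed because they hold the ER stress response element, the letters CCAAT and CCACG on either strand with any 9 bases between them, through which ATF6 and XBP1 are known to act. They are 250 bases upstream of the start in RefSeq's annotation of GRCm38.p6, written 5′ to 3′ with the matched letters in capitals. The Hspa5 window is chr2:34771840-34772089 on the plus strand, Hsp90b1 chr10:86705445-86705694 on the minus strand, Creld2 chr15:88819396-88819645 on the plus strand and Syvn1 chr19:6046326-6046575 on the plus strand.
Hspa5: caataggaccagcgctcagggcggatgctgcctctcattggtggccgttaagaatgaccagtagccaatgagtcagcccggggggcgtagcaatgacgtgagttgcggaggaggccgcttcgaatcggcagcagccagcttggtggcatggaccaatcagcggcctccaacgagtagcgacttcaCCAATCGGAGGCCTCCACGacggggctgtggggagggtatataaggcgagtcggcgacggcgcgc
Hsp90b1: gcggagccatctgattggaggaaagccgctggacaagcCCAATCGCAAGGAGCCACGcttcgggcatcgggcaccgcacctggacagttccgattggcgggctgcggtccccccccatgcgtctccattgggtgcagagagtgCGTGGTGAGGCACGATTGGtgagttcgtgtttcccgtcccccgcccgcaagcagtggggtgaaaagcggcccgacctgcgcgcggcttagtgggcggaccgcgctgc
Creld2: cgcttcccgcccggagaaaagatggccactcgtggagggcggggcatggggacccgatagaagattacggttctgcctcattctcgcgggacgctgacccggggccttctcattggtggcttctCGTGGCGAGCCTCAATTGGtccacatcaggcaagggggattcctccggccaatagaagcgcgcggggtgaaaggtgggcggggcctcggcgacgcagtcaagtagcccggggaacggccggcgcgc
Syvn1: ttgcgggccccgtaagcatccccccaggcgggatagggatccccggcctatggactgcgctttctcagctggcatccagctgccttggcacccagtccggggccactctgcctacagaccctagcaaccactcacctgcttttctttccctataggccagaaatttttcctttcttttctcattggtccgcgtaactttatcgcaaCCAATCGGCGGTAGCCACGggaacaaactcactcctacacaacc
Hsp90b1 holds 2 matches, 1 on each strand, and the others 1 each. In windows of 300 bases (250 before the start to 50 after it) the element was found in 8 of 24 matched members of the list and in 0.137% of the 27025 genes in the table. Of the 7 called genes 6 were matched and 4 held it; Sel1l and Xbp1 did not in this window.

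Among heat shock chaperones (median -0.34, 14 of 22 members negative and 8 positive) 1 of 22 was called lower, Hsp90aa1, with 1884, 1872 and 1738 on QH2 and 2695, 3276 and 2227 on Q10 (-0.56 ± 0.13, adjusted p = 0.0189). That call was lost without Q10 array 2 (adjusted p = 0.0973) or QH2 array 3. With arrays scaled to 1 median signal 2 were called higher and 0 lower, with a median of -0.11. Without both Q10 arrays 1 and 2 the median was 0.08. Cytosolic ribosomal protein genes were lower in 4 of 25, by small amounts: Rpl35 (-0.31 ± 0.07, adjusted p = 0.0124), Rpl7 (-0.27 ± 0.06), Rps24 (-0.28 ± 0.07) and Rps6 (-0.35 ± 0.10). With arrays scaled to 1 median signal 0 of the 25 were called and the median was -0.00, against -0.20. Calls numbered 1, 5 and 1 in the fits that dropped QH2 array 1, 2 or 3, and 17, 0 and 4 in those that dropped Q10 array 1, 2 or 3. The proteasome list had 0 called of 29 (median -0.01).

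**Figure D3:**
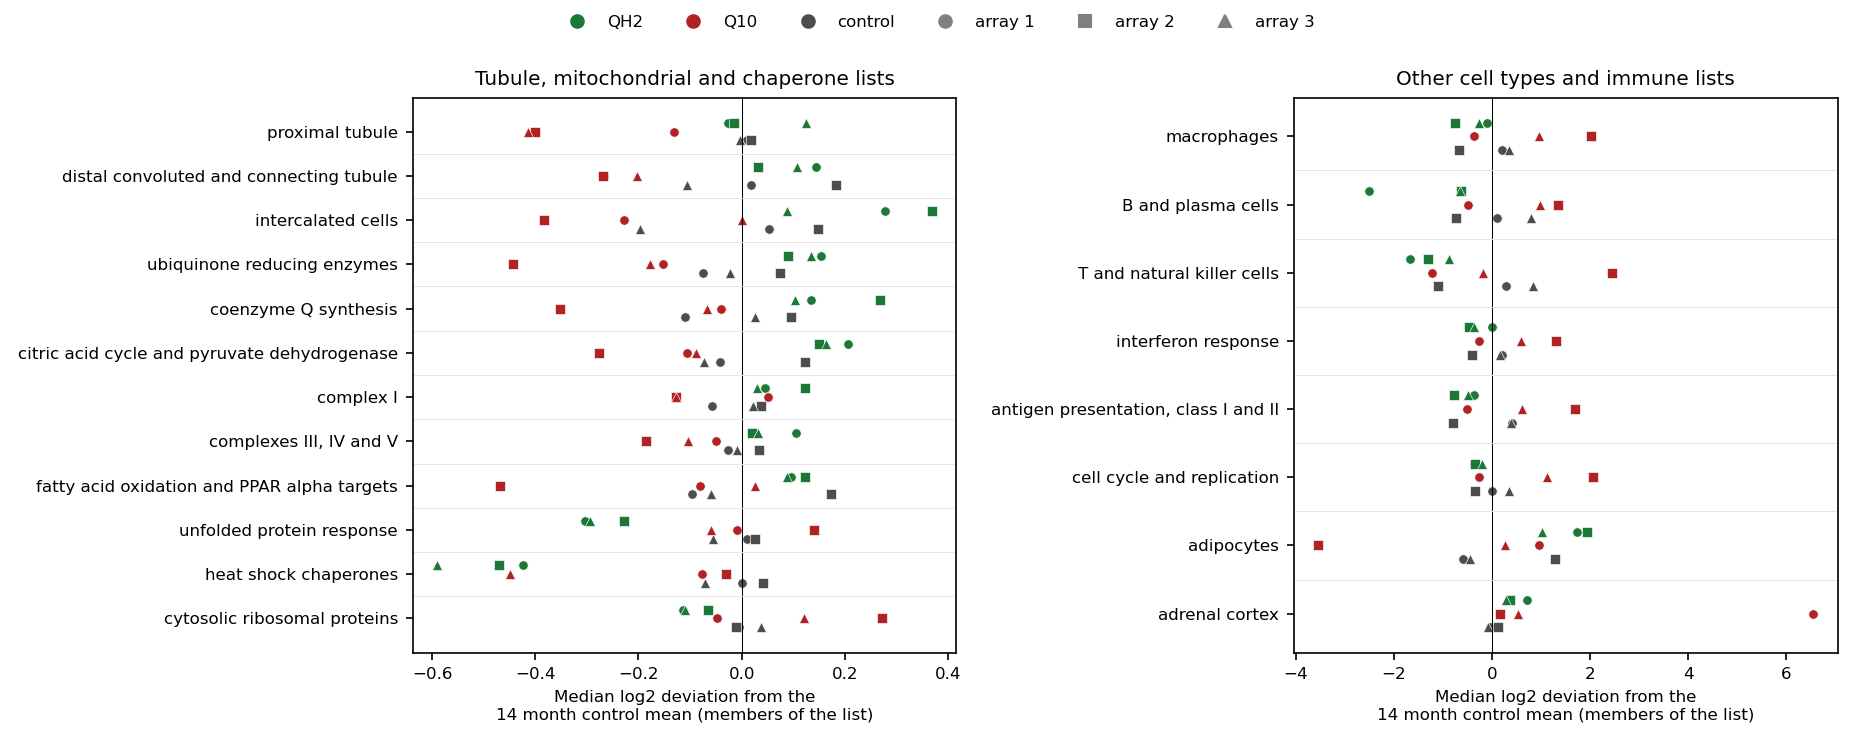
Median log2 deviation of each list's members from the mean of the 3 control arrays of 14 months, for each array (colour is diet, shape is array number; the panels have different scales). In the tubule and mitochondrial lists the Q10 arrays lie mostly left of the QH2 arrays. In the unfolded protein response the QH2 arrays lie left of all others. In the right panel Q10 array 1 stands apart in adrenal genes. Q10 array 2 does so in adipocyte, macrophage, T and natural killer cell, interferon and antigen presentation genes. In B and plasma cell genes QH2 array 1 stands apart at -2.50, and Q10 arrays 2 and 3 lie at 1.36 and 0.98.

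Some genes of leukocytes were lower on QH2, with great differences between the Q10 arrays. All 19 macrophage genes had a negative difference (median -1.25) and 4 were called. Ctss, the protease cathepsin S, had 154, 211 and 340.3 on QH2, 317, 1914 and 688 on Q10 and 436, 270.0 and 588 on control (-1.74 ± 0.43, adjusted p = 0.0236). Lyz2, lysozyme, had 449, 365 and 518 on QH2, 521, 5290.1 and 2488 on Q10 and 1168, 372 and 1979 on control (-2.11 ± 0.61, adjusted p = 0.0474). In both genes Q10 array 2 was the highest, Q10 array 3 next, and Q10 array 1 within or next to the range of QH2. The receptor Csf1r (-0.74 ± 0.19, adjusted p = 0.0324) and the complement gene C1qb (-1.44 ± 0.41, adjusted p = 0.0447) were the other calls. Calls in the list numbered 1, 1 and 1 in the fits that dropped QH2 array 1, 2 or 3, and 15, 0 and 0 in those that dropped Q10 array 1, 2 or 3, and the median without Q10 array 2 was -0.80.

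B and plasma cell genes had a median of -1.99 with 3 of 14 called: Ms4a1, CD20 (-2.76 ± 0.73, adjusted p = 0.0344), Mzb1, a plasma cell chaperone (-1.89 ± 0.50, adjusted p = 0.035), and Xbp1. Ms4a1 had 20.3, 73.9 and 63.3 on QH2, 67.5, 604 and 763 on Q10 and 216, 88.6 and 305 on control. Q10 array 1 lay within the QH2 range and the other Q10 arrays above every control array. Calls in the list numbered 1, 4 and 2 in the fits that dropped QH2 array 1, 2 or 3, and 9, 1 and 1 in those that dropped Q10 array 1, 2 or 3. The median was -1.26 without QH2 array 1 and -1.42 without Q10 array 2. T and natural killer cell genes had 0 called of 13 (median -1.75, -0.57 without Q10 array 2) and neutrophil genes 0 of 6.

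Genes of the interferon response and of antigen presentation, which leukocytes and inflamed tubules use, also had lower calls. In the interferon list 5 of 28 were called lower and 0 higher (median -0.81). Ifi35, an interferon induced protein, had 395, 401 and 391 on QH2, 535, 889 and 679 on Q10 and 472, 387 and 501 on control. Its QH2 and Q10 arrays did not overlap (-0.79 ± 0.14, adjusted p = 0.00444) and the call held. Cxcl10, a chemokine, had 39.8, 12.9 and 27.9 on QH2 and 43.5, 405 and 92.5 on Q10 (-2.23 ± 0.59, adjusted p = 0.0332), and Gbp7, a guanylate binding protein, 209, 158 and 142 on QH2 and 213, 799.8 and 444 on Q10 (-1.33 ± 0.37, adjusted p = 0.04). The immunoproteasome subunits Psmb8 (-1.67 ± 0.48, adjusted p = 0.0484) and Psmb10 (-1.06 ± 0.29, adjusted p = 0.0402) were the other calls. Calls numbered 5, 1 and 1 in the fits that dropped QH2 array 1, 2 or 3, and 18, 1 and 1 in those that dropped Q10 array 1, 2 or 3; where there was 1, it was Ifi35 (highest adjusted p of the others 0.219, Psmb8 without Q10 array 2). Antigen presentation had 4 of 13 called lower, Tapbp, H2-D1, H2-K1 and H2-Eb1 (-0.73 to -1.53). For Tapbp the other tested probe set had the opposite sign, without being called. The number of calls in this list changed with the arrays left out. There were 12 without Q10 array 1 and 0 in each fit that dropped 1 of the other 5 arrays. With the values as deposited 0 were called in the macrophage, interferon and antigen presentation lists.

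The 2 called interferon genes whose promoters hold the core of the interferon stimulated response element, TTTC repeated after any 2 bases on either strand, are shown in the same way, 250 bases upstream of the start. The Cxcl10 window is chr5:92348890-92349139 on the minus strand and that of Gbp7 chr3:142530086-142530335 on the plus strand.
Cxcl10: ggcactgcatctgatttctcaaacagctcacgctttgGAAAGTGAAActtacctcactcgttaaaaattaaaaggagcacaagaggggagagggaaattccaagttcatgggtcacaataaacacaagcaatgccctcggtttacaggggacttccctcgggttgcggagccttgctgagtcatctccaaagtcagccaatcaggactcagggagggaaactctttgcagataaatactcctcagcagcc
Gbp7: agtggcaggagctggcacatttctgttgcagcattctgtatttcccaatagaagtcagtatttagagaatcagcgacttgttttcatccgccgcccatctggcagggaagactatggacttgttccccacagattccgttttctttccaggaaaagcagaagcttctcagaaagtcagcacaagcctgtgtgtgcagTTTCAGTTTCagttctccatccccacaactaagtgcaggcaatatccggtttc
The core was found in 12 of 23 matched members and in 3.99% of all genes' windows of 300 bases. Of the 5 called members, all matched, 2 held it.

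Proliferation genes were high on Q10 arrays 2 and 3 too. Of 20 cell cycle genes 4 were called lower on QH2 and 0 higher, and all 20 differences were negative (median -1.11). Mcm7, a subunit of the replicative helicase, had 245, 303 and 286 on QH2, 391, 647 and 622 on Q10 and 325, 249 and 349 on control (-0.96 ± 0.17, adjusted p = 0.00454). Cdc20, an activator of the anaphase promoting complex, had 30.3, 22.8 and 34.5 on QH2, 53.6, 199 and 104 on Q10 and 48.2, 34.0 and 56.8 on control (-1.81 ± 0.37, adjusted p = 0.00903), at low signals. In both genes the 2 diets did not overlap and the call held. Rrm2, of nucleotide reduction (-1.59 ± 0.38, adjusted p = 0.0214), and Mcm3, another helicase subunit (-1.61 ± 0.39, adjusted p = 0.0242), were lost without Q10 array 2 (adjusted p = 0.109 and 0.126), and likewise without QH2 array 1, QH2 array 3 or Q10 array 3. Calls in the list numbered 2, 4 and 2 in the fits that dropped QH2 array 1, 2 or 3, and 14, 2 and 2 in those that dropped Q10 array 1, 2 or 3.

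Genes of injury and matrix were lower in part. In the injury and inflammation list 4 of 19 were called lower, the adhesion receptors Icam1 (-1.19 ± 0.28, adjusted p = 0.0193) and Vcam1 (-1.82 ± 0.46, adjusted p = 0.0263), Cxcl10, and Vim, the filament protein vimentin (-0.93 ± 0.25, adjusted p = 0.0367). Vcam1 had 84.8, 121 and 132 on QH2, 155, 988 and 398 on Q10 and 284, 109 and 256 on control, so that 2 control arrays lay above 1 of the Q10 arrays. Calls in that list numbered 2, 3 and 0 in the fits that dropped QH2 array 1, 2 or 3, and 5, 0 and 0 in those that dropped Q10 array 1, 2 or 3. In the collagen and matrix list 4 of 25 were lower (median -0.26): the growth factor Tgfb1 (-1.31 ± 0.29, adjusted p = 0.014), the matricellular Sparc (-0.56 ± 0.15, adjusted p = 0.0341) and the collagens Col6a1 (-0.89 ± 0.25, adjusted p = 0.0417) and Col4a1 (-0.59 ± 0.17, adjusted p = 0.0442), and calls numbered 1, 2 and 2 in the fits that dropped QH2 array 1, 2 or 3, and 6, 3 and 0 in those that dropped Q10 array 1, 2 or 3. The macrophage sum given above was highest on Q10 array 2, as were Vcam1 and Tgfb1 (94.4, 229 and 197 on Q10). Sparc (1149, 690 and 1046) and Col4a1 (1108, 770 and 1487) were lowest on that array among the Q10 arrays. The part of the leukocyte genes in these calls was not tested.

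Among the 24 genes with the greatest change only 3 calls held. Cd44, the hyaluronan receptor found on leukocytes and on injured tubules, had 22.9, 43.4 and 34.8 on QH2, 161, 562 and 196 on Q10 and 91.8, 46.1 and 148 on control. All Q10 arrays were above all others (-2.96 ± 0.43, adjusted p = 0.00139). Tnfrsf19, a receptor of the TNF family, had 10.97, 0.772 and 0.922 on QH2 and 79.8, 42.2 and 74.1 on Q10 (-4.22 ± 0.78, adjusted p = 0.00577), where the QH2 signals are near the bottom of the array's range. Habp2, a serine protease that binds hyaluronan, was the third, with 136, 60.1 and 132 on QH2, 35.5, 34.8 and 20.4 on Q10 and 86.2, 121 and 90.3 on control (1.78 ± 0.27, adjusted p = 0.00198).

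Ucp1 and Thrsp, both active in fat, had large differences that rest in part on Q10 signals near the bottom of the array's range. Ucp1, the uncoupling protein of brown fat, had 893, 1215 and 1851 on QH2, 59.3, 1.15 and 17.2 on Q10 and 1.42, 1404 and 461 on control (6.57 ± 1.86, adjusted p = 0.0449). Thrsp, a lipogenic protein, had 336, 328 and 656 on QH2, 125, 4.48 and 32.0 on Q10 and 27.3, 254 and 91.4 on control (3.88 ± 0.96, adjusted p = 0.0245). Both genes varied widely among the control arrays, and 1 of these exceeded 2 of the QH2 arrays for Ucp1. Cidea, another gene of brown fat, had 902, 1199 and 836 on QH2, 145, 0.789 and 16.5 on Q10 and 0.783, 929.7 and 168 on control and did not pass (5.87 ± 1.92, adjusted p = 0.0774). With an offset of 16 in place of 1 before the log2 the differences were 5.19 for Ucp1, 3.07 for Thrsp and 4.47 for Cidea, which then passed (adjusted p = 0.0434). All 10 adipocyte genes had a positive difference (median 1.85, 0.58 without Q10 array 2), and Ucp1 was the only call. Ucp1 and Thrsp were lost without Q10 array 2 (adjusted p = 0.179 and 0.123). Both were also lost without QH2 array 1, QH2 array 3 or Q10 array 3, and Ucp1 without QH2 array 2. The 11 adrenal genes had 0 called and a median of -1.53, which became 0.20 without Q10 array 1.

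Each compound was also set against the control diet at 14 months, in comparisons that share their arrays with the one above. QH2 differed from control in 0 probe sets (limma, 1577 at an unadjusted p under 0.05) and Q10 in 181 (0.67%), 29 higher and 152 lower. In the proximal tubule list the median was 0.04 for QH2 minus control and -0.32 for Q10 minus control, with 0 and 5 members called. For ubiquinone reducing enzymes it was 0.11 and -0.24, with 0 and 1 called, and for the unfolded protein response -0.28 and 0.00, with 0 called in either. Macrophage genes had medians of -0.42 and 0.60, B and plasma cell genes -1.18 and 0.60. For T and natural killer cell genes the medians were -1.38 and 0.34. In these leukocyte lists 0 members were called in either comparison. For Apom Q10 minus control was -1.04 ± 0.09 (adjusted p = 1.85e-05), and the same comparison for Slc4a4 gave -0.60 ± 0.11 (adjusted p = 0.0141), for Etfdh -0.59 ± 0.12 (adjusted p = 0.0272) and for Coq9 -0.44 ± 0.10 (adjusted p = 0.0487). For Ccnd2 it was 1.28 ± 0.17 (adjusted p = 0.00297). For Hspa5 the difference was -0.66 ± 0.14 for QH2 minus control and -0.02 ± 0.14 for Q10 minus control, with neither called.

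After 6 months of feeding QH2 differed from Q10 in 79 probe sets (0.292%), 10 higher and 69 lower. The difference between the 2 durations was itself tested in the same fit: it was called in 703 probe sets (2.6%), 527 of them (1.95%) more positive at 14 months. Values as deposited gave 4 calls for it and scaling to 1 median signal gave 191. Without 1 array of 14 months there were 403 (QH2 array 1), 297 (QH2 array 3), 1911 (Q10 array 1) and 365 (Q10 array 2), and without 1 array of 6 months 316 and 324 (QH2 arrays 1 and 2) and 278 and 218 (Q10 arrays 1 and 2). For 4 lists the medians of QH2 minus Q10 at 6 months were as follows: -0.02 in the proximal tubule, -0.05 in ubiquinone reducing enzymes, 0.09 in the unfolded protein response and -0.13 in macrophages. The number of members whose difference between durations was called was 11 of 36 in the proximal tubule, 4 of 17 in ubiquinone reducing enzymes, 5 of 22 in the citric acid cycle, 3 of 26 in the unfolded protein response and 0 of 19 in macrophages.

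The smallest p for this difference was that of Apom, for which QH2 minus Q10 was -0.12 at 6 months and 1.15 at 14 months (difference 1.27 ± 0.12, adjusted p = 0.000181). Bid followed with -0.37 and 1.49 (1.86 ± 0.21, adjusted p = 0.000613). The other 4 of the 6 named genes with the smallest p were Rsrp1, an arginine and serine rich nuclear protein (-1.37 and 1.46, difference 2.83 ± 0.35, adjusted p = 0.00127), Sema4a, a semaphorin (-0.43 and 0.65, 1.08 ± 0.13, adjusted p = 0.00127), Tmem64, a membrane protein (-0.57 and 0.79, 1.36 ± 0.18, adjusted p = 0.00195), and Xpnpep1, an aminopeptidase (-0.44 and 0.40, 0.84 ± 0.11, adjusted p = 0.00206). In all 6 the sign at 6 months was opposite to that at 14 months, a pattern that choosing genes by this difference favours. Etfdh had -0.08 at 6 months (difference 0.88 ± 0.17, adjusted p = 0.0117), Coq9 -0.17 (0.73 ± 0.14, adjusted p = 0.0123), Sucla2 -0.02 (0.69 ± 0.12, adjusted p = 0.00729) and Hsp90b1 0.20 (-0.82 ± 0.16, adjusted p = 0.0141).

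**Figure D4:**
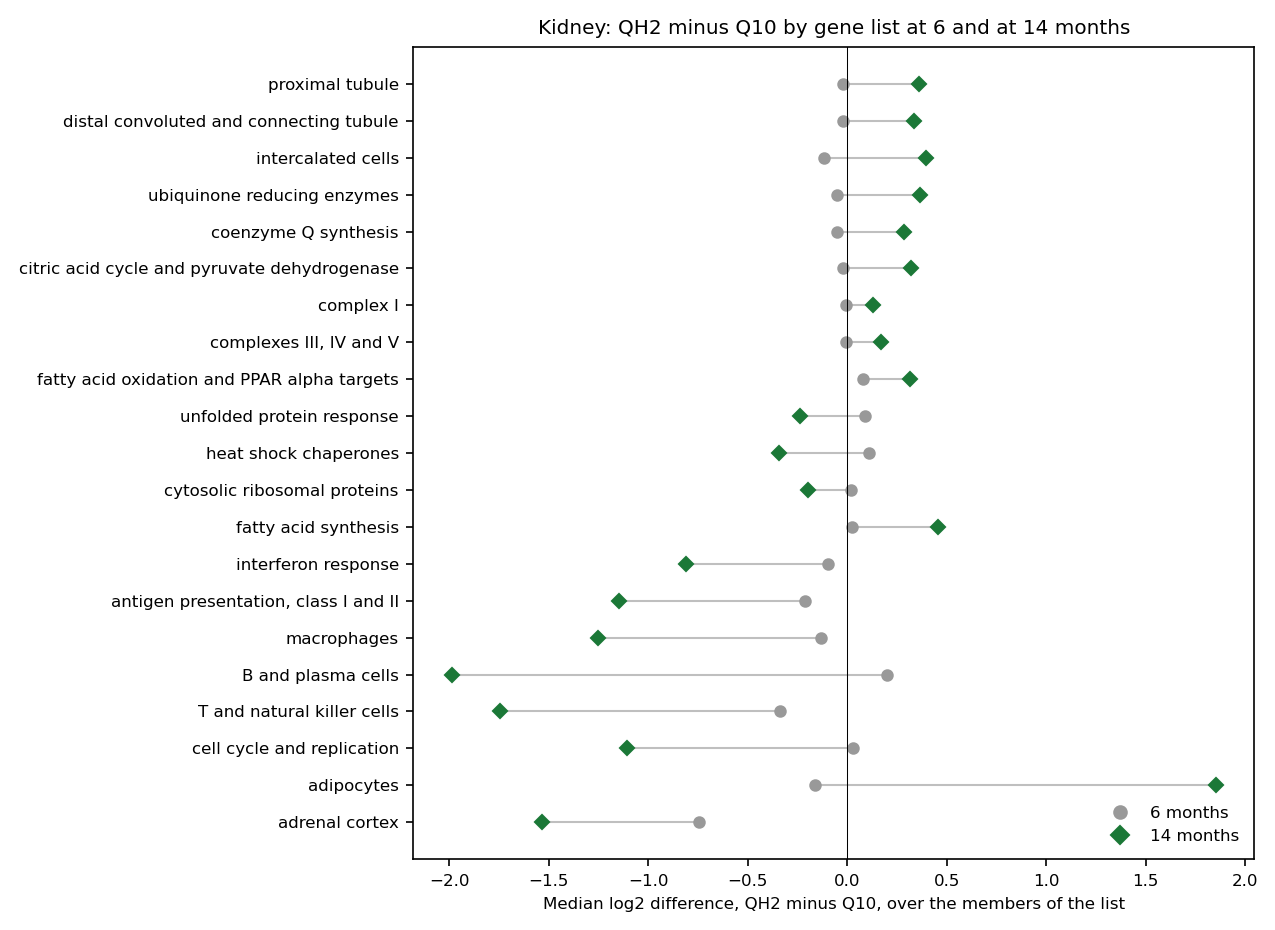
Median log2 difference, QH2 minus Q10, over the members of each list after 6 months (circles) and 14 months (diamonds) of feeding. In the 3 tubule lists drawn (proximal, distal convoluted with connecting, and intercalated cells) and the 6 mitochondrial lists the circles lie between -0.12 and 0.08 and the diamonds lie between 0.13 and 0.39, and the diamonds of the immune lists lie at or below -0.81.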

How the data were processed

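The authors deposited 1 intensity per probe set and array (Affymetrix Mouse 430 2.0, linear scale). GCOS is named in the submitters' processing notes. Its version, scaling target and background step were not given in the sources used here. Of 45101 probe sets, 64 controls were left out. The 18 kidney arrays were quantile normalised, an offset of 1 was added and log2 taken. Probe sets with a mean above the 40th percentile were tested (27022) with limma 3.58.1 in R 4.3.3 (6 group means, intensity trend, Benjamini-Hochberg), with p-values that measure the spread between these arrays. Quantile normalisation forces equal distributions, so a general shift cannot be seen. Symbols came from the platform table, updated through Entrez identifiers: 34945 probe sets had 1 symbol, 932 several and 9160 none. A list member is its brightest tested probe set. A dimmer probe set of the same gene that was called is not in the list counts, as for Hlf, Gpx4, Fdft1 and Cxcl9.

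The members and the gene lists were chosen with earlier results of these data known. Genes were named as up to 12 higher and 12 lower with the greatest change among calls without overlap, the called members of each list with up to 4 by p, the coenzyme Q synthesis genes, kidney markers, and 6 by the difference between durations; the smallest p values were added after they were seen. Lists were described where at least 4 members were tested. Promoters came from RefSeq (GRCm38.p6). The fit was tested on simulated data. Alternatives were the deposited scale, median scaling, offsets, filters, fewer arrays, weights, covariates, the replicate block and leaving out arrays.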

Additional observations from a re-analysis of the deposited data

Results flagged for a closer look

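The difference between QH2 and Q10 at 14 months differed from the one at 6 months in 703 probe sets, by the test of that difference in the limma fit. The values that follow are log2, QH2 minus Q10 at 14 months less the same at 6 months, for the genes named in the text. Of genes named for their p or the size of their change it was 1.27 for Apom, 1.86 for Bid, 1.94 for Habp2, 2.83 for Rsrp1, 1.36 for Tmem64, 1.08 for Sema4a, 0.84 for Xpnpep1, -1.58 for Ccnd2 and -3.32 for Cd44. Among the genes of ubiquinone and electron flow it was 0.88 for Etfdh, 0.61 for Etfa, 0.33 for Sdha, 1.24 for Prodh2, 0.73 for Coq9, 0.51 for Ndufs1, 0.45 for Ndufab1 and 0.48 for Uqcrfs1. In carbon and lipid metabolism Sucla2 had 0.69, Pdhx 0.71, Idh3a 0.68, Acaa2 0.84, Hadhb 0.71, Fabp3 0.91 and Srebf1 1.30.

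Tubule genes had values of 0.80 (Slc4a4), 0.69 (Fbp1), 0.49 (Cubn), 0.48 (Slc34a1), 0.73 (Slc13a1), 0.68 (Slc7a9), 0.88 (Slc8a1), 0.67 (Rhbg), 0.65 (Kl) and 0.60 (Pth1r). For detoxifying enzymes they were 1.09 (Gsta3), 0.37 (Gpx1) and 0.81 (Fmo1). Chaperone and stress genes had -0.82 (Hsp90b1), -0.58 (Xbp1), -0.78 (Syvn1) and -0.83 (Hsp90aa1). The remaining values were -1.15 for Mcm7, -2.15 for Cdc20, -0.54 for Rps6, 1.17 for Ier3, -2.54 for Myc, 0.89 for Car12 and -1.11 for P4ha1. Q10 arrays 1 and 2 of 14 months, which stood apart in adrenal and leukocyte genes, enter all of these values, and their part in each was not tested.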

How the results depend on the processing

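With 3 arrays a group, 46 of 100 simulated 2-fold changes and 86 of 100 simulated 4-fold changes were called, so that in the simulation smaller changes were often missed. The simulated noise was independent for each probe set, and few probe sets were changed. The arrays here had deviations shared by many genes and far more differences, so these shares need not carry over to them. Against 1633 calls, the values as deposited gave 62, the 6 arrays alone 0, the 9 arrays of 14 months 51, a fit without intensity trend 683 and array weights 3434. Leaving out 1 array gave 522 to 3078, and leaving out both Q10 arrays 1 and 2, chosen after seeing the data, gave 982. Against 703 calls for the difference between durations, the values as deposited gave 4, scaling to 1 median 191, no filter 436, no intensity trend 166, array weights 1832, and leaving out 1 array 218 to 1911. Other offsets, the filter at the 60th percentile and the Actb ratio as covariate kept both counts within 1.5 times, as did the Gapdh ratio, which was also added after seeing the data.

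Same-numbered arrays of the 2 diets did not deviate together (correlations -0.05, -0.08 and -0.01, against -0.06 to 0.11 for different numbers). With groups of 3 this cannot show whether the numbers pair the mice. With the replicate number as a block there were 1225 and 488 calls. Of 244 probe sets of the named genes, 158 had a weaker call with the 6 arrays alone and 139 with the values as deposited. Without Q10 array 2 it was 105 and with the block 34, and 0 called values were reversed under any alternative. The median of the heat shock list was -0.34 and became 0.077 without both Q10 arrays 1 and 2; the cause was not tested. Of 42 list medians 13 moved by more than the spread between arrays when scaled to 1 median and 2 with values as deposited.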

Other observations

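Most lists not described above had few calls. In the list of renin, vitamin D and phosphate hormone genes 4 of 14 were called higher and 0 lower (median 0.21). Over all tested probe sets 3.98% were called higher. Without Q10 array 2 the list had 2 higher calls and a median of 0.03, and with the values as deposited it had 0 calls. Among 20 immediate early genes Ier3, a stress response gene, was higher on QH2 (0.84 ± 0.17, adjusted p = 0.0102) and Myc, a transcription factor of growth, lower (-1.31 ± 0.36, adjusted p = 0.0407). Of 20 hypoxia targets the carbonic anhydrase Car12 was higher (0.63 ± 0.10, adjusted p = 0.00215) and P4ha1, a collagen prolyl hydroxylase, lower (-0.61 ± 0.17, adjusted p = 0.038). In RNA splicing 2 of 24 were lower, Ddx17, an RNA helicase (-0.44 ± 0.09), and Srsf1, a splicing factor (-0.43 ± 0.11), and 0 were called when arrays were scaled to 1 median signal. Markers of hepatocytes, urothelium and skeletal muscle had 0 called of 8, 5 and 4, and of 18 mesangial, fibroblast and smooth muscle genes 1 was lower, Col6a1.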
